A study of Mus musculus with 6 samples.

Results

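The enzymes described here are the 10 genes of the liver that turn cholesterol into conjugated bile acids: Cyp7a1, Cyp8b1, Hsd3b7, Akr1d1, Cyp27a1, Cyp7b1, Cyp2c70, Amacr, Slc27a5 and Baat. They were chosen by gene symbol for their place in the pathway, with earlier results of these data known, and are 10 of the 40803 mouse genes in the count table. Liver RNA was sequenced from 6 male C57BL/6J mice, with 1 library per mouse and 3 mice per group. The mice were about 6 weeks old when 100 µL of virus was injected into the tail vein, were fed normally, and were examined 4 weeks later. The rAAV8-sh-scramble group received a recombinant adeno-associated virus of serotype 8 that carries a scrambled short hairpin RNA (shRNA). The rAAV8-sh-Hnf1aos1 group received the same kind of virus with an shRNA against Hnf1aos1, a long non-coding RNA. The U6 promoter, which is active in all cell types, drives the shRNA, and the construct also codes for enhanced green fluorescent protein (EGFP), so both groups carried virus, hairpin and reporter. The comparison asks how each step of bile acid synthesis differed between livers with the Hnf1aos1 hairpin and livers with the scrambled one.

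Bile acids are made in hepatocytes along a classic pathway, which starts with Cyp7a1 in the endoplasmic reticulum, and an alternative pathway, which starts with Cyp27a1 in mitochondria and continues with Cyp7b1. Cyp8b1 directs the product towards cholic acid, and in rodents Cyp2c70 makes the hydrophilic muricholic acids. The side chain is then shortened in peroxisomes, where Amacr is needed. Slc27a5 activates bile acids for conjugation, and Baat joins activated bile acids to taurine or glycine. The level of the finished acids feeds back on the pathway through the nuclear receptor FXR (Nr1h4), its target SHP (Nr0b2), and a fibroblast growth factor signal from the gut that hepatocytes receive through Fgfr4 and Klb.

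The promoters of Cyp2c70, the member with the largest change, and of Cyp8b1, its competitor in setting the composition of the acids and a gene whose level was not called changed, are shown for comparison. Both are RefSeq sequences on GRCm38.p6 and run 5′ to 3′ on the strand of the gene, from 250 bases before the RefSeq start of the gene to 50 bases after it. Cyp2c70 lies at chr19:40187237-40187536 on the minus strand and Cyp8b1 at chr9:121916256-121916555 on the minus strand. Capitals mark AGGTCA, the core of a nuclear receptor site, and AAGTCCA, part of a site of the hepatocyte factor HNF4.
Cyp2c70: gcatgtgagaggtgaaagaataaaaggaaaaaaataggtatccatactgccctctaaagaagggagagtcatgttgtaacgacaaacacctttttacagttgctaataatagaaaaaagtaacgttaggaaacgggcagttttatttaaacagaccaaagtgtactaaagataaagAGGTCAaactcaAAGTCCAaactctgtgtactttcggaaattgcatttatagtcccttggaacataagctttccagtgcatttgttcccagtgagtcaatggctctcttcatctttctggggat
Cyp8b1: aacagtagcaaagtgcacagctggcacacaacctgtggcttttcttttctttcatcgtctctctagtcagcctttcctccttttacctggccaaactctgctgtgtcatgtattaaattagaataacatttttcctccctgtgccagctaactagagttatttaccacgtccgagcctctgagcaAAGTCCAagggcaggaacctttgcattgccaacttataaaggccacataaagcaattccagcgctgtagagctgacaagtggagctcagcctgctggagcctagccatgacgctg

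Promoters of 5 of the 10 members were at hand (Cyp2c70, Cyp8b1, Akr1d1, Hsd3b7 and Cyp27a1), and both strands were searched. In Cyp2c70, AGGTCA began at −74 and AAGTCCA at −62 from the RefSeq start, without overlap. The latter also stood in Cyp8b1, at −65, so the called and the uncalled gene shared these letters. GENCODE places the start of Cyp2c70 further upstream, at 40187333, and from there the distances are shorter, while Cyp8b1 has the same start in both sources. Akr1d1 held the nuclear receptor core on the opposite strand at −232 and −210. CACGTG, the E-box that clock factors bind, was found in none of the 5 promoters, and Hsd3b7 and Cyp27a1 held none of the 3 motifs. Of 32851 promoters of the same length, 16.3% held the nuclear receptor core, 4.17% the HNF4 part and 7.15% the E-box. The HNF4 part was added after the sequences were seen, and a match describes letters, not a bound site.

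Counts of mouse genes summed to between 14704746 and 19462398 per library, and 16327 genes passed the filter on low counts. A normalized count is a raw count divided by the library's size after TMM scaling, relative to the mean of the 6 sizes, and a gene is called when edgeR's quasi-likelihood test gave a p under 0.05 after Benjamini-Hochberg adjustment across the genes tested. Log2 fold changes are sh-Hnf1aos1 over scramble. Hnf1aos1 itself had 512, 491 and 620.3 normalized counts in scramble replicates 1 to 3 and 278, 258 and 433 in sh-Hnf1aos1 replicates 1 to 3. Every sh-Hnf1aos1 library was below every scramble library, with 59.8% of the scramble level left. The log2 fold change was −0.74 (SE 0.195, adjusted p = 0.0625 by edgeR's quasi-likelihood test), so the targeted gene was not called, and it was least reduced in sh-Hnf1aos1 replicate 3. Hnf1aos1 is annotated as an antisense gene and the strand setting of the counting is not known, so its level is uncertain. The summed TPM (a level per length of transcript, scaled to a fixed total in each library) of 7 hepatocyte markers was 68905 to 74700 in scramble and 64672 to 77573 in sh-Hnf1aos1 libraries, so the libraries carried the transcripts of the tissue on their labels.

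All 10 enzymes passed the filter, and 2 of them, Cyp7b1 and Cyp2c70, were called, both higher in the sh-Hnf1aos1 group. Of all genes tested, 6.32% were called, 3.09% higher and 3.23% lower. The other 8 members were not called. The groups did not overlap for 2 of the 10 members, against 28.9% of all genes tested, so the share without overlap was no larger than the background. The log2 fold changes of 6 members lay between the quartiles of all genes, −0.23 and 0.19, and 6 members were above and 4 below 0. The median over the members was 0.14, against −0.00040 over all genes. In bulk liver RNA, a change in the number of cells that express a gene and a change in RNA per cell cannot be told apart.

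**Figure D1:**
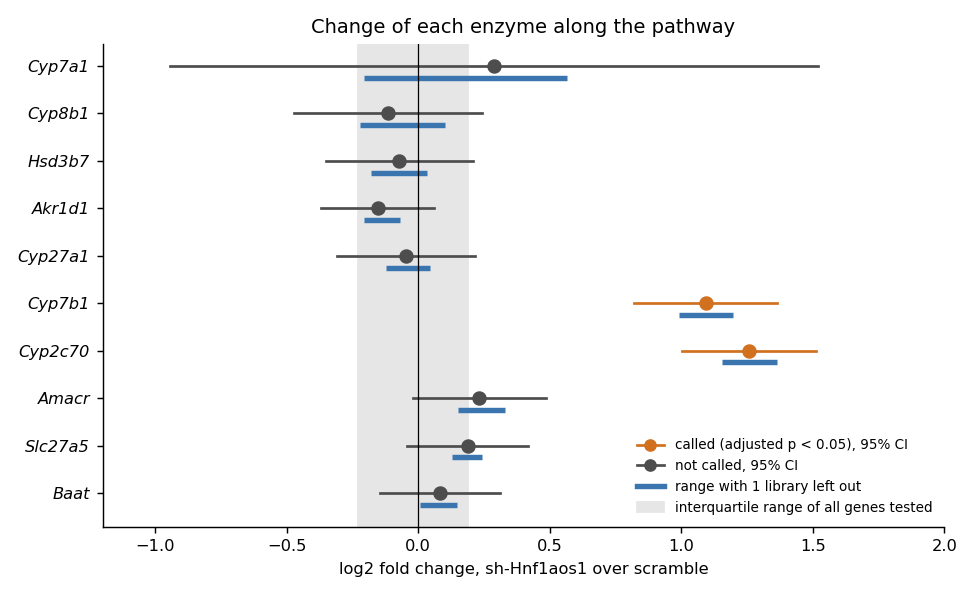
Log2 fold change (sh-Hnf1aos1 over scramble) of the 10 enzymes in the order of the pathway, as point and 95% confidence interval (CI) from edgeR's fit, orange where called, with the range over fits that each left out 1 library in blue and the interquartile range of all genes tested in grey. Cyp7b1 at 1.09 and Cyp2c70 at 1.26 stood apart from the grey band, while Cyp7a1 at 0.29 had the widest interval, −0.94 to 1.52.

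Cyp7a1, the rate-limiting enzyme of the classic pathway, lies on chromosome 4 from 6265612 to 6275633 on the minus strand (GENCODE, GRCm38). Its normalized counts were 3856, 4134 and 2250.2 in scramble replicates 1 to 3 and 6558, 3539 and 2409 in sh-Hnf1aos1 replicates 1 to 3. The highest library belonged to the sh-Hnf1aos1 group and the lowest to the scramble group, while sh-Hnf1aos1 replicates 2 and 3 both lay below scramble replicates 1 and 2. Means were 3413 ± 1017 (SD, n = 3) and 4169 ± 2145 (SD, n = 3). On the log2 scale the fold change was 0.29 (SE 0.468, 95% CI −0.94 to 1.52, adjusted p = 0.770 by edgeR's quasi-likelihood test), an interval that runs from 0.520-fold to 2.87-fold. No other member varied as much between mice of a group: the highest library exceeded the lowest 1.84 times among scramble and 2.72 times among sh-Hnf1aos1 mice, and the coefficient of variation was 29.8% and 51.5%. Without sh-Hnf1aos1 replicate 1 the log2 fold change turned to −0.21 (adjusted p = 0.802, edgeR). These 3 mice per group therefore set only wide limits on a change of Cyp7a1.

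Cyp7a1 transcripts follow the time of day in mouse liver, so clock genes were read beside it. All 13 clock genes listed had log2 fold changes below 0 (median −0.18, highest −0.05). Only 1 of the 13 was called, against 6.32% of all genes tested. This was Per1, a repressor of the clock, at −1.80 (SE 0.206, adjusted p = 0.00294 by edgeR's quasi-likelihood test). The summed TPM of the list was 207 to 214 in scramble and 157 to 183 in sh-Hnf1aos1 libraries. The part of this in the level of any enzyme was not tested.

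Of the remaining enzymes that modify the steroid rings in the classic pathway, none was called. Cyp8b1, the sterol hydroxylase that leads to cholic acid, lies on chromosome 9 from 121914356 to 121916305 and had 4772, 7284 and 4936 normalized counts in scramble and 4786, 5766 and 5133 in sh-Hnf1aos1 libraries (replicates 1 to 3). Scramble replicate 2 held the highest value and the other 5 libraries lay near each other. The log2 fold change of Cyp8b1 was −0.12 (SE 0.160, 95% CI −0.47 to 0.24, adjusted p = 0.713 by edgeR's quasi-likelihood test), and it turned to 0.10 without scramble replicate 2. Hsd3b7, the dehydrogenase that acts after Cyp7a1 in the classic and after Cyp7b1 in the alternative pathway, lies on chromosome 7 from 127800604 to 127803802. It had 3632, 4970.1 and 4382 normalized counts in scramble and 3599.97, 4391 and 4362 in sh-Hnf1aos1 libraries. Replicate 1 was the lowest library of both groups, and the groups overlapped. Its log2 fold change was −0.07 (SE 0.127, 95% CI −0.35 to 0.21, adjusted p = 0.781, edgeR). In the GENCODE annotation, 96.0% of the 75-base stretches of the longest Hsd3b7 transcript are shared with the overlapping genes Gm49388 and 9430064I24Rik, neither of which has a row in the count table, so the level of Hsd3b7 is uncertain; the other 9 members shared none.

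Akr1d1, the reductase that removes the double bond of the steroid ring, lies on chromosome 6 from 37530173 to 37568815 on the plus strand. It had 4290, 3698 and 3621 normalized counts in scramble and 3674, 3385 and 3381 in sh-Hnf1aos1 libraries. The sh-Hnf1aos1 libraries had the lowest coefficient of variation of any member in that group, 4.83%, and only sh-Hnf1aos1 replicate 1 reached into the scramble range. It had a log2 fold change of −0.15 (SE 0.0980, 95% CI −0.37 to 0.06, adjusted p = 0.373 by edgeR's quasi-likelihood test), with the same sign in all 6 fits that each left out 1 library (−0.20 to −0.07) but above 0 with spike-in scaling, given below.

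**Figure D2:**
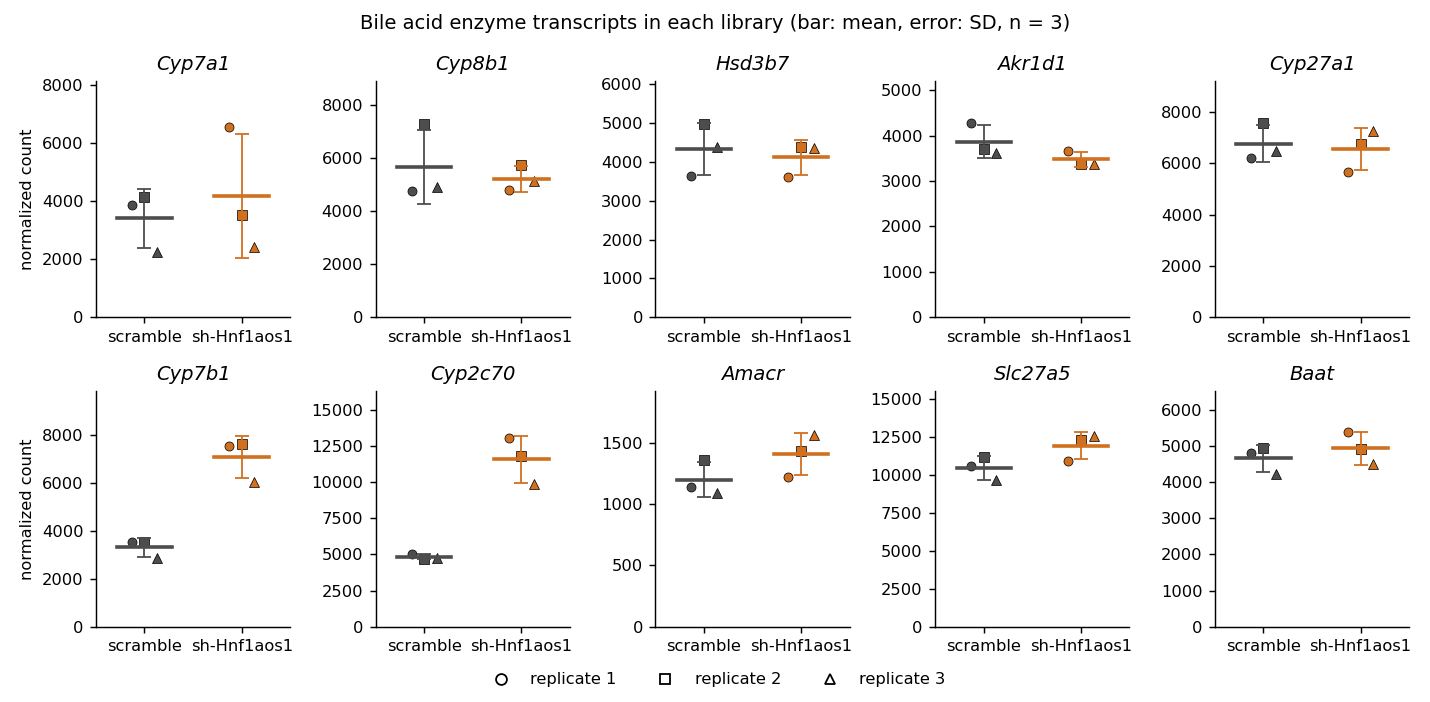
Normalized count of each enzyme in each library, with 1 panel per enzyme in the order of the pathway, circles, squares and triangles for replicates 1, 2 and 3, and bars for the mean and SD of 3 mice. Cyp7b1 and Cyp2c70 were the members whose groups did not overlap, with Cyp7b1 at 2861 to 3549.9 in scramble against 6050.2 to 7599 in sh-Hnf1aos1 libraries.

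The alternative pathway split between its enzymes. Cyp27a1, the mitochondrial sterol hydroxylase that opens it, lies on chromosome 1 from 74713574 to 74737892 on the plus strand and had 6218, 7585 and 6492 normalized counts in scramble and 5652, 6766 and 7250.3 in sh-Hnf1aos1 libraries. The highest library was in the scramble and the lowest in the sh-Hnf1aos1 group, and the ranges overlapped. Means were 6765 ± 723 (SD, n = 3) and 6556 ± 819 (SD, n = 3), with a log2 fold change of −0.05 (SE 0.120, 95% CI −0.31 to 0.22, adjusted p = 0.859 by edgeR's quasi-likelihood test).

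Cyp7b1, the oxysterol hydroxylase of the following step, rose. It lies on chromosome 3 from 18071950 to 18243338 on the minus strand. Its normalized counts were 3549.9, 3531 and 2861 in scramble replicates 1 to 3 and 7542, 7599 and 6050.2 in sh-Hnf1aos1 replicates 1 to 3. The lowest sh-Hnf1aos1 library was far above the highest scramble library, and in both groups replicate 3 was the lowest. Means were 3314 ± 393 (SD, n = 3) and 7064 ± 878 (SD, n = 3). The log2 fold change was 1.09 (SE 0.124, 95% CI 0.82 to 1.36, adjusted p = 0.00154 by edgeR's quasi-likelihood test), a 2.13-fold difference with an interval from 1.77 to 2.57, and Cyp7b1 ranked 18 among the 16327 genes by p. An exact permutation test of the 6 values, two-sided, gave 0.1, the lowest p that 3 mice per group permit. Across other scalings, filters and tests the log2 fold change stayed between 1.01 and 1.29, and with 1 library left out between 0.99 and 1.19 (adjusted p at most 0.0195, edgeR). An intron of Cyp7b1 holds the small nuclear RNA gene Gm23686 on the same strand, with 15 to 304 raw counts of its own, a small number beside the 2601 to 7997 of Cyp7b1.

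Cyp2c70, the enzyme that makes muricholic acids in rodents, rose most among the members. It lies on chromosome 19 from 40153353 to 40187333 on the minus strand in GENCODE, whose start lies inside the promoter window shown above, upstream of the RefSeq start. Its normalized counts were 5036, 4688 and 4785 in scramble replicates 1 to 3 and 13037, 11786 and 9857 in sh-Hnf1aos1 replicates 1 to 3. The scramble mice were nearly equal, with a coefficient of variation of 3.71%, and every sh-Hnf1aos1 mouse was far above them. Within the sh-Hnf1aos1 group the lowest value was in replicate 3. Means were 4836 ± 179 (SD, n = 3) and 11560.1 ± 1602 (SD, n = 3). This gave a log2 fold change of 1.26 (SE 0.116, 95% CI 1.00 to 1.51, adjusted p = 0.000665 by edgeR's quasi-likelihood test), a 2.39-fold difference with an interval from 2.00 to 2.85, and Cyp2c70 ranked 6 by p. It stayed between 1.17 and 1.46 across other scalings, filters and tests, and between 1.15 and 1.36 with 1 library left out (adjusted p at most 0.0155, edgeR). None of the 75-base stretches of its longest transcript occurs in another annotated gene, so reads of other Cyp2c genes are distinguishable over that length. Both Cyp7b1 and Cyp2c70 passed a log2 fold change of 1, a limit that 2.16% of all genes tested passed together with the call and 0.784% passed upwards.

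The enzymes of side chain processing and conjugation had log2 fold changes above 0 that were not called. Amacr, the racemase that prepares the side chain for shortening, lies on chromosome 15 from 10981756 to 10996626 and had 1138, 1361 and 1093 normalized counts in scramble and 1224, 1433 and 1562 in sh-Hnf1aos1 libraries. Scramble replicate 2 lay inside the sh-Hnf1aos1 range. The log2 fold change of Amacr was 0.23 (SE 0.115, 95% CI −0.02 to 0.49, adjusted p = 0.251 by edgeR's quasi-likelihood test). Slc27a5, the bile acyl-CoA synthetase that activates acids for conjugation, lies on chromosome 7 from 12988346 to 12998192 and had 10586, 11156 and 9641 normalized counts in scramble and 10913, 12278 and 12569 in sh-Hnf1aos1 libraries. The groups overlapped through sh-Hnf1aos1 replicate 1, which lay inside the scramble range. Its log2 fold change was 0.19 (SE 0.105, 95% CI −0.04 to 0.42, adjusted p = 0.305, edgeR). Baat, the transferase that joins bile acids to taurine or glycine, lies on chromosome 4 from 49489422 to 49506557 and had 4799.6, 4944 and 4229 normalized counts in scramble and 5381, 4921 and 4488 in sh-Hnf1aos1 libraries. Replicate 3 was the lowest in both groups. Its log2 fold change was 0.08 (SE 0.104, 95% CI −0.15 to 0.31, adjusted p = 0.682, edgeR).

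These directions hold relative to the other genes. With library sizes taken from the ERCC spike-ins, synthetic RNAs that took 1.38 to 1.52% of counts in scramble and 1.18 to 1.24% in sh-Hnf1aos1 libraries, the log2 fold changes of all genes had their median moved to 0.20 and calls split into 3030 higher and 364 lower, in place of 505 and 527. On that scale Cyp8b1, Hsd3b7, Akr1d1 and Cyp27a1 turned to small values above 0, and Amacr (0.43, adjusted p = 0.0371) and Slc27a5 (0.39, adjusted p = 0.0417, edgeR) were called in addition to Cyp7b1 and Cyp2c70. All these values include the shift of 0.20 that the genes had in common.

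Levels between enzymes were compared by TPM. In the scramble group Slc27a5 was highest at 584 ± 26.8 TPM (SD, n = 3). Cyp8b1 at 377 ± 86.5, Cyp2c70 at 369 ± 16.6 and Cyp27a1 at 367 ± 34.7 TPM followed, separate from Slc27a5 and overlapping each other. Hsd3b7 came next at 281 ± 42.7 TPM, and its libraries were separate from those of Cyp27a1 above it and of Baat at 183 ± 9.82 TPM below it. Its highest library (315.8 TPM) just overlapped the lowest of Cyp8b1 (315.4 TPM). Baat and Cyp7b1, at 177 ± 16.4 TPM, overlapped. Cyp7a1 at 106 ± 29.2 TPM lay below Cyp7b1 without overlap and overlapped Amacr at 100.3 ± 9.90 TPM. Akr1d1 had the lowest mean, 70.8 ± 6.07 TPM, and overlapped Cyp7a1 but not Amacr. The rate-limiting enzyme of the classic pathway was thus among the less abundant transcripts of the set in these livers.

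In the sh-Hnf1aos1 group the order changed at its top. Cyp2c70 moved from rank 3 to rank 1, at 838 ± 139 TPM (SD, n = 3), above Slc27a5 at 631 ± 27.9 TPM without overlap. Cyp7b1 moved from rank 7 to rank 3, at 359 ± 50.04 TPM, and overlapped Cyp27a1 at 337 ± 32.8 TPM, which overlapped Cyp8b1 at 331 ± 22.8 TPM. Hsd3b7 (253 ± 19.7 TPM) and Baat (185 ± 22.3 TPM) each had no overlap with the enzyme ranked above. Cyp7a1 (125 ± 68.6 TPM), Amacr (112 ± 10.6 TPM) and Akr1d1 (60.5 ± 5.01 TPM) kept ranks 8, 9 and 10, as in the scramble group, with Baat, Cyp7a1 and Amacr overlapping in turn.

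**Figure D3:**
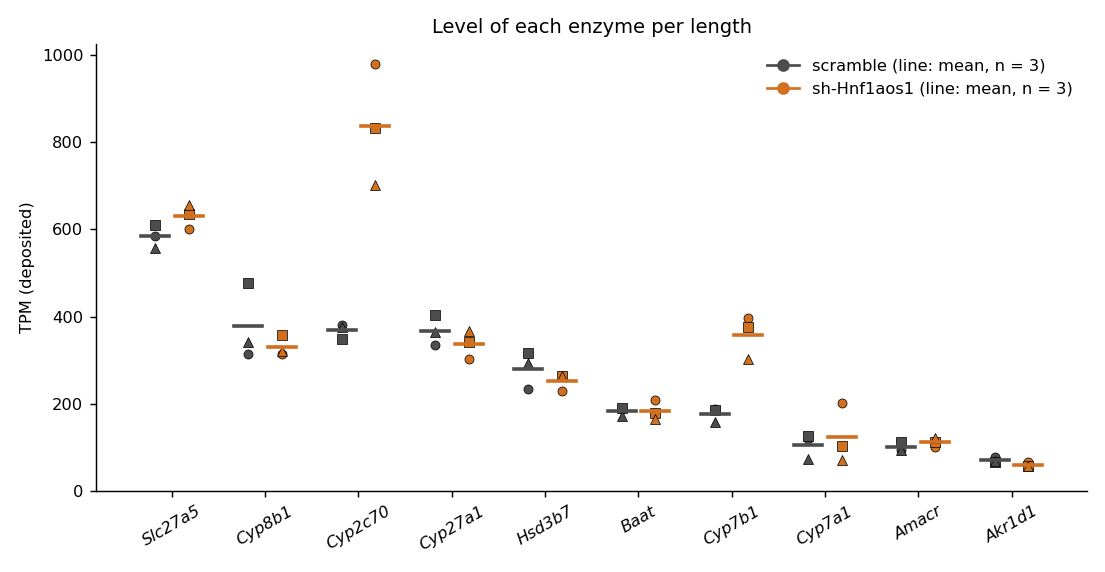
Deposited TPM of each enzyme, ordered by the scramble mean, with circles, squares and triangles for replicates 1, 2 and 3 and a line for the mean of 3 mice. In the sh-Hnf1aos1 group Cyp2c70 (702 to 979 TPM) lay above all other members, and Cyp7b1 (302 to 397 TPM) reached the level of Cyp27a1 and Cyp8b1.

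Summed over the 10 enzymes, TPM was 2515, 2836 and 2499 in scramble replicates 1 to 3 and 3405, 3259 and 3029 in sh-Hnf1aos1 replicates 1 to 3. The sum was higher in every sh-Hnf1aos1 library, and its make-up differed. Its largest increases were those of Cyp2c70 (mean 369 to 838 TPM) and Cyp7b1 (177 to 359 TPM), so the higher sum is not separate from these 2 calls. Cyp2c70 made up 14.2% ± 1.59 of it in the scramble and 25.8% ± 2.81 in the sh-Hnf1aos1 group (SD, n = 3). The share of Cyp7b1 was 6.77% ± 0.613 and 11.1% ± 0.948. Slc27a5 held 22.4% ± 0.882 and 19.6% ± 2.01, Cyp8b1 14.3% ± 2.21 and 10.3% ± 0.893, and Cyp7a1 4.03% ± 0.986 and 3.80% ± 1.89. Shares of a sum move together, so a lower share of Slc27a5 or Cyp8b1 is not a lower level.

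A pair of ratios within each library, which do not depend on scaling, set the branches of the pathway against each other. The log2 ratio of Cyp8b1 to Cyp2c70 counts, cholic acid enzyme over muricholic acid enzyme, was −0.08, 0.64 and 0.04 in scramble replicates 1 to 3 and −1.45, −1.03 and −0.94 in sh-Hnf1aos1 replicates 1 to 3. The groups did not overlap, and the difference of the means was −1.34 (exact permutation test, two-sided, p = 0.1, the lowest p that 3 mice per group permit). The ratio is not separate from the Cyp2c70 result, since the log2 fold change was 1.26 for Cyp2c70 and −0.12 for Cyp8b1. In plain counts, Cyp8b1 had 0.948, 1.55 and 1.03 reads per read of Cyp2c70 in scramble and 0.367, 0.489 and 0.521 in sh-Hnf1aos1 libraries.

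The log2 ratio of Cyp7b1 to Cyp7a1 counts, the alternative over the classic hydroxylase, was −0.12, −0.23 and 0.35 in scramble replicates 1 to 3 and 0.20, 1.10 and 1.33 in sh-Hnf1aos1 replicates 1 to 3. Here the groups overlapped, since sh-Hnf1aos1 replicate 1, which had the highest Cyp7a1, lay below scramble replicate 3, which had the lowest. The difference of the means was 0.88 (exact two-sided permutation test, p = 0.2). With 3 mice per group this test cannot go below 0.1, so it could not decide whether the difference exceeds the spread between mice. After Benjamini-Hochberg adjustment over the 2 ratios both exact p-values were 0.2, and a design of this size could not have passed 0.05.

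**Figure D4:**
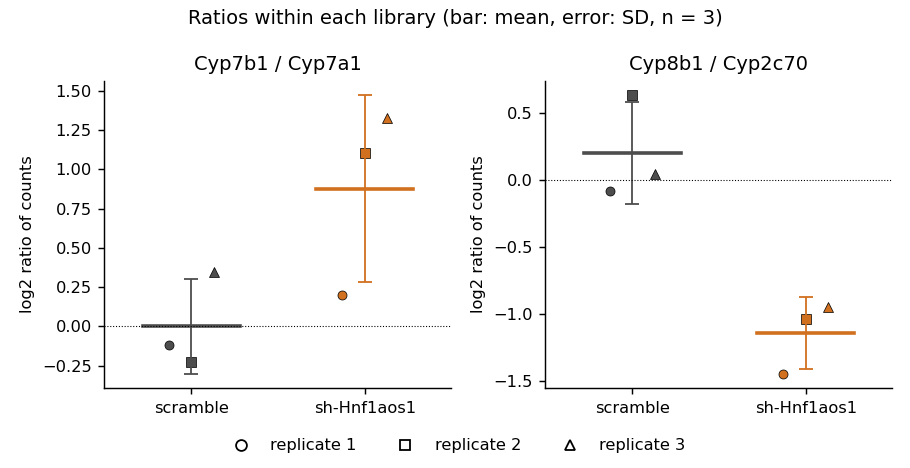
Log2 ratio of raw counts in each library for Cyp7b1 over Cyp7a1 (left) and Cyp8b1 over Cyp2c70 (right), with circles, squares and triangles for replicates 1, 2 and 3 and bars for the mean and SD of 3 mice. The groups overlapped on the left (0.20 in sh-Hnf1aos1 replicate 1 against 0.35 in scramble replicate 3) and were apart on the right.

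Other genes of the pathway were read from lists. Of 16 further enzymes, electron donors and carriers of bile acid synthesis, 15 passed the filter (Ch25h had at most 3 counts in any library). None of the 15 was called by edgeR's quasi-likelihood test, against 6.32% of all genes tested, and DESeq2 called 0. An unadjusted p under 0.05 (edgeR) was found for 5 of the 15, but also for 3822 of all 16327 genes tested. The median log2 fold change of the 15 was −0.06. Fdx1, the ferredoxin that hands electrons to mitochondrial P450 enzymes such as Cyp27a1, had the highest value of the list, 0.34 (SE 0.120, adjusted p = 0.112, edgeR), with 627 to 758 normalized counts in scramble and 805 to 1046 in sh-Hnf1aos1 libraries. Cyp46a1, a cholesterol hydroxylase known mainly from brain, had the lowest, −0.72 (SE 0.402, adjusted p = 0.305, edgeR), at only 11.4 to 41.7 normalized counts. The 5 genes of taurine supply, which feed the conjugation by Baat, gave no call by edgeR or DESeq2. Their median log2 fold change was −0.09, and 1 of the 5 had an unadjusted p under 0.05 (edgeR), beside the same 3822 of 16327. Csad, which makes the taurine precursor hypotaurine, was lowest at −0.38 (SE 0.153, adjusted p = 0.170, edgeR), and the taurine transporter Slc6a6 was highest at 0.17 (SE 0.121, adjusted p = 0.437, edgeR).

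Of 12 regulators of the pathway, 2 were called, both lower, against 3.23% of all genes called lower, and the median log2 fold change was −0.26. The constitutive androstane receptor Nr1i3, which senses xenobiotics and bile acids, had 616, 623 and 584 normalized counts in scramble and 335, 475 and 368 in sh-Hnf1aos1 libraries. All sh-Hnf1aos1 libraries were below all scramble libraries, with a log2 fold change of −0.63 (SE 0.126, adjusted p = 0.0172 by edgeR's quasi-likelihood test). The call was lost without scramble replicate 2 (adjusted p = 0.0554) and without scramble replicate 3 (adjusted p = 0.0846, edgeR). Klb, the co-receptor through which the gut hormone FGF15 represses Cyp7a1, had 922, 1053 and 866 normalized counts in scramble and 545, 573 and 795 in sh-Hnf1aos1 libraries. It was lower in every sh-Hnf1aos1 library, least so in replicate 3, at −0.57 (SE 0.144, adjusted p = 0.0450 by edgeR's quasi-likelihood test). This call sat at the threshold: with 1 library left out it held without sh-Hnf1aos1 replicate 3 (adjusted p = 0.000766), and each of the 5 other fits lost it (adjusted p 0.0936 to 0.151, edgeR). It was also lost with library sizes from the spike-ins (adjusted p = 0.127) and with the replicate number as a block (adjusted p = 0.0746, edgeR). The Klb call held by DESeq2 (adjusted p = 0.00775), voom (adjusted p = 0.0451) and limma on TPM (adjusted p = 0.0478). In edgeR it held with DESeq2 size factors (adjusted p = 0.0442), library totals (adjusted p = 0.0256) and no filter (adjusted p = 0.000119).

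The lowest value among the regulators was that of Nr0b2, the repressor SHP, with 692, 292 and 568 normalized counts in scramble and 254, 360.2 and 273 in sh-Hnf1aos1 libraries. Scramble replicate 2 lay among the sh-Hnf1aos1 libraries, and the log2 fold change of −0.81 (SE 0.343) had an adjusted p of 0.237 by edgeR's quasi-likelihood test and of 0.0141 by DESeq2. The highest was that of Rxra, the partner receptor of FXR, with 5219 to 6284 normalized counts in scramble and 6790.2 to 7685 in sh-Hnf1aos1 libraries and a log2 fold change of 0.35 (SE 0.105, adjusted p = 0.0686 by edgeR and 0.0334 by DESeq2). The bile acid receptor gene Nr1h4 (0.08, SE 0.137, adjusted p = 0.780, edgeR) and Fgfr4 (−0.05, SE 0.0936, adjusted p = 0.781, edgeR), named for their place in the feedback loop after their values were seen, had overlapping groups.

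**Figure D5:**
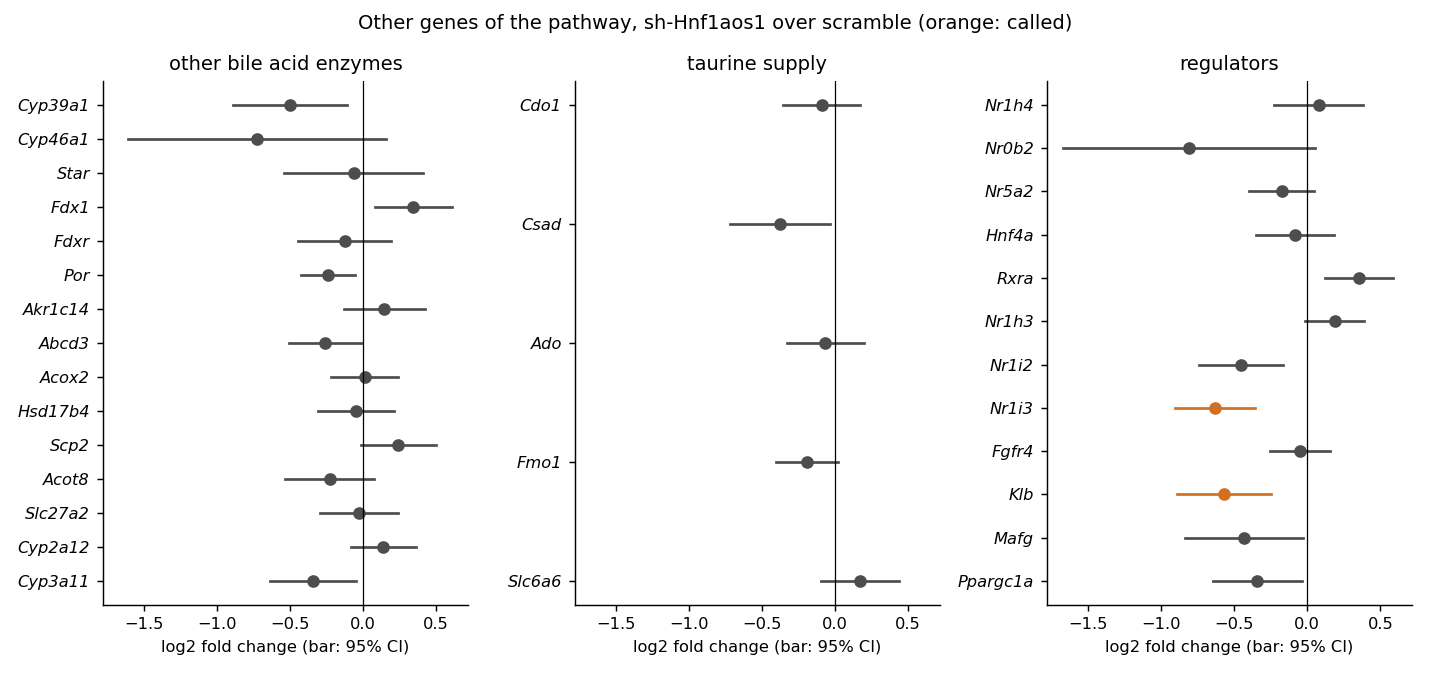
Log2 fold change (sh-Hnf1aos1 over scramble) with 95% CI for the tested genes of the lists of other bile acid enzymes, taurine supply and regulators, orange where called by edgeR's quasi-likelihood test. Nr1i3 and Klb, at −0.63 and −0.57, were the called genes in the 3 panels, and Nr0b2 and Cyp46a1 had the widest intervals.

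Other transcripts differed between the same libraries, and their part in the levels of Cyp7b1, Cyp2c70 or the regulators was not tested. All 10 acute phase genes were above 0 (median log2 fold change 1.43), with a summed TPM of 10402 to 11443 in scramble and 15029 to 27956 in sh-Hnf1aos1 libraries. Of the 10, the 3 fibrinogen chains Fga (1.06), Fgb (1.11) and Fgg (1.04) were called higher, against 3.09% of all genes tested. All 7 Kupffer cell markers were higher without overlap, while 28.9% of all genes tested had no overlap in either direction. Of the 7, 3 were called higher (Clec4f, Adgre1 and C1qa at 0.44, 0.41 and 0.55), against the same 3.09%. The summed TPM of the 7 was 142 to 175 in scramble and 180.4 to 238 in sh-Hnf1aos1 libraries. Of 7 hepatocyte markers, Tat was called lower (−0.72), against 3.23% of all genes tested, and none higher. None of 8 pericentral markers (4728 to 6776 against 3774 to 5055 summed TPM) and none of 7 periportal markers (2299 to 2491 against 2462 to 2790.1 summed TPM) was called, and their medians were −0.20 and 0.09. Markers of cholangiocytes (3 of 5 tested), sinusoidal endothelium (5), stellate cells (5), leukocytes (4 of 8 tested) and skeletal muscle (5) gave no call. Their summed TPM was 25.1 to 29.2 against 33.5 to 174 for cholangiocytes, 92.1 to 95.9 against 78.9 to 93.5 for endothelium and 145 to 190.5 against 118 to 161 for stellate cells. It was 6.42 to 10.9 against 8.75 to 14.0 for leukocytes and 44.3 to 169 against 19.4 to 51.7 for muscle, and of these markers Ly6g had no library above 3 counts. Spp1 made up most of the cholangiocyte sum, with a mean of 23.4 TPM in scramble and 78.7 in sh-Hnf1aos1 libraries, highest in replicate 1. Krt19 (1.89 and 0.89 TPM) and Krt7 (0.63 and 0.44) had lower means in the sh-Hnf1aos1 group. Those of Epcam (1.81 and 2.23) and Cftr (0.037 and 0.068) were higher, so the cholangiocyte range mainly followed Spp1.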

How the data were processed

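Per the labels and the study's methods, liver RNA of 6 mice was sequenced, 3 per group. The authors trimmed the reads with Trimmomatic, aligned them with STAR and used featureCounts for the unique exonic reads of each gene, deposited as raw counts (40895 rows, 92 of them ERCC spike-ins). The deposited TPM values cover the same rows, and how the authors computed them is not given in the sources used here. The authors' normalized counts and their table of log2 fold changes and p-values were not used. The methods name GRCm38 and a stranded poly(A) kit, while the labels name GRCm39 and depletion of ribosomal RNA; the strand setting of the counting and the annotation release are not given in the sources used here. Positions come from GENCODE vM21 on GRCm38, matched by symbol.

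Neither library sizes nor tests included spike-ins. TMM scaling and tests used edgeR 4.0.16 in R 4.3.3, genes were filtered by filterByExpr (16327 of 40803 kept), and the groups were compared by robust quasi-likelihood fits with Benjamini-Hochberg adjustment and a call at an adjusted p under 0.05. The biological coefficient of variation was 13.9%. Ratios were compared by exact two-sided permutation tests in scipy 1.17.1, and figures were drawn with matplotlib 3.10.9 in Python 3.11.15. Alternatives were DESeq2 1.42.0, voom of limma 3.58.1, DESeq2 size factors, library totals or spike-ins for scaling, no filter, limma on log2(TPM + 0.1), the replicate number as a block, a log2 fold change limit of 1, and each library left out. Counts of libraries of one group gave a chi-square of 7.68 to 31.6 for each gene on average, above the 1 of sampling noise, so none was a repeat of another. Gene totals of 14704746 to 19462398 leave the difference between mice as the main error of the enzymes. The tests were tested on simulated data. The members and gene lists were chosen with earlier results of these data known. From the lists of other enzymes, taurine supply and regulators the text names every gene called and those with the largest and smallest log2 fold change. From further lists it names genes called, Ly6g for its low counts, and the cholangiocyte markers, which were named after their values were seen. A gene of the regulators and a promoter motif are not reported here.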

Additional observations from a re-analysis of the deposited data

How the results depend on the processing

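The calls of Cyp7b1 and Cyp2c70 held under all 14 alternatives and left-out libraries, and the log2 fold change of Baat stayed above 0 and uncalled in all of them. With library sizes from the spike-ins, 4 members were called in place of 2, since Amacr (0.43) and Slc27a5 (0.39) joined, and Cyp8b1 (0.078), Hsd3b7 (0.13), Akr1d1 (0.0497) and Cyp27a1 (0.15) turned to values above 0. With 1 library left out, values ranged from −0.21 to 0.57 for Cyp7a1 (lowest without sh-Hnf1aos1 replicate 1), from −0.22 to 0.10 for Cyp8b1 (highest without scramble replicate 2), from −0.18 to 0.034 for Hsd3b7 and from −0.12 to 0.0436 for Cyp27a1. Hsd3b7 (0.034 and 0.0088) and Cyp27a1 (0.0396 and 0.0436) turned above 0 without scramble replicate 2 or sh-Hnf1aos1 replicate 1. Hnf1aos1 was called by DESeq2 (−0.75), by voom (−0.77), without a filter (−0.74) and, with 1 library left out (−1.01 to −0.60), in the fit without sh-Hnf1aos1 replicate 3. The 1032 genes called became 3394 with the spike-ins, 1902 without a filter, 594 on TPM, 352 beyond a log2 fold change of 1, and 103 to 1881 with 1 library left out, fewest without scramble replicate 3. Other bile acid enzymes called were 1 with library totals, 2 with the spike-ins, 3 without a filter and 0 to 1 with 1 library left out. Taurine supply genes called were 1 with the spike-ins, 1 without a filter and 0 to 1 with 1 library left out. Regulators called, 2 in the report, were 5 with DESeq2, 4 without a filter, 0 beyond a log2 fold change of 1 and 0 to 5 with 1 library left out. The causes of these shifts were not tested.

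Replicate numbers did not pair the libraries: deviations of same-numbered libraries correlated between −0.02 and 0.02. With the replicate number as a block, Hnf1aos1 was called (−0.77, adjusted p = 0.0138, edgeR), 1 regulator (Nr1i3) was called, 878 genes were called in all, and the calls among the 10 members were the same. The log2 ratios kept their direction with 1 library left out (0.65 to 1.22 for Cyp7b1 over Cyp7a1, −1.48 to −1.12 for Cyp8b1 over Cyp2c70), and with the block neither could go below p = 0.25 in the exact sign-flip permutation test. With 2046 to 6877 raw counts of Cyp7a1 per library, its counting error was small beside the spread between mice.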
